A study of Mus musculus with 2 samples.

Results

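The mammalian circadian clock rests on a small set of transcription factors and their inhibitors, and 10 of its genes are described here: Per1, Per2, Per3, Cry1, Cry2, Clock, Arntl, Nr1d1, Nr1d2 and Dbp. They were chosen by name, as the core loop of the clock and its best known direct output, and all 10 of 10 were found among the 32289 features counted. Nuclei were compared from the anterior hypothalamus with the preoptic area of wild-type male mice aged 3 months and from the same region of male mice aged 22 months, with the tissue of 5 mice pooled into 1 library per age. Nuclei were isolated by homogenising and density gradient, cleared of myelin on magnetic columns and sequenced one by one on the 10x Genomics platform. Each age is therefore 1 library, no p-value between ages can be had, and age, the pool of mice, the library and the hour of dissection (not given in the sources used here) cannot be told apart.

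In the clock's main loop the proteins CLOCK and ARNTL (also called BMAL1) pair, bind E-box sequences in DNA and switch on the Per, Cry, Nr1d1, Nr1d2 and Dbp genes. PER and CRY proteins accumulate, enter the nucleus and block CLOCK and ARNTL, so that their own genes are switched off again about once a day. A second loop runs through NR1D1 and NR1D2 (the REV-ERBs), which repress Arntl through ROR elements, and DBP acts on D-box sequences of clock and output genes. The suprachiasmatic nucleus, a small cell group of the anterior hypothalamus above the optic chiasm, is the master clock that is set by light and synchronises the clocks of other cells, while neurons and glia elsewhere in the brain carry clocks of their own.

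Upstream DNA is shown for the members in which a clock element was found by its letters, because these elements are how the loops are wired. RefSeq promoter windows of 300 bases (GRCm38.p6, 250 bases before to 50 after a start site) were held for 9 of the 10 members, all but Per2. Both strands were searched for the E-box CACGTG, the related E-prime box CACGTT, the D-box TTATGTAA and the ROR element TAGGTCA, none of which overlapped another in these windows. In each line below the bases run 5′ to 3′ on the gene's strand, and capitals mark the element, which reads as its reverse complement where it lies on the other strand. An E-box lies in Per1 and Cry1, as in 8.09% of the 27025 genes with a window, and an E-prime box in Cry1, Cry2 and Nr1d1 (5.44% of genes).
Per1, chr11:69098699-69098948, + strand, E-box: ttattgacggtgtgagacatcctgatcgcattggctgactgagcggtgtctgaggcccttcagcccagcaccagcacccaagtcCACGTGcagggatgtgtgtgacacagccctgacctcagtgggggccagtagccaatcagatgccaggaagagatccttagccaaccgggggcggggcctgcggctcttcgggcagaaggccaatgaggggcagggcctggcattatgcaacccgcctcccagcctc
Cry1, chr10:85185055-85185304, − strand, E-prime box and E-box: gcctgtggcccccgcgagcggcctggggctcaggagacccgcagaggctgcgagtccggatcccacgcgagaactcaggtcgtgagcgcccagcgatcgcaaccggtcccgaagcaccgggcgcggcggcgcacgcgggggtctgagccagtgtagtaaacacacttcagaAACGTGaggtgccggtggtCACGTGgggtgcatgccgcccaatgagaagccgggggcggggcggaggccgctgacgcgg
Cry2, chr2:92434070-92434319, − strand, E-prime box: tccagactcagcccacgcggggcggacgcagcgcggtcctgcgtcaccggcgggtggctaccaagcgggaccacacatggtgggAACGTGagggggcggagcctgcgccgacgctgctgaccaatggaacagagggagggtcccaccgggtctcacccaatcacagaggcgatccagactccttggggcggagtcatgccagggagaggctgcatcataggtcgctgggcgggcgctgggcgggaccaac
Nr1d1, chr11:98775378-98775627, − strand, E-prime box: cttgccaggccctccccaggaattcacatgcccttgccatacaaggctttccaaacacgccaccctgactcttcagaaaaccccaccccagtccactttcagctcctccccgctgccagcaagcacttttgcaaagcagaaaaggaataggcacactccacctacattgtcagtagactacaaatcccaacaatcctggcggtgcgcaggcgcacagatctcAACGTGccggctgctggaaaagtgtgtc
Per3, chr4:151044666-151044915, − strand, D-boxes: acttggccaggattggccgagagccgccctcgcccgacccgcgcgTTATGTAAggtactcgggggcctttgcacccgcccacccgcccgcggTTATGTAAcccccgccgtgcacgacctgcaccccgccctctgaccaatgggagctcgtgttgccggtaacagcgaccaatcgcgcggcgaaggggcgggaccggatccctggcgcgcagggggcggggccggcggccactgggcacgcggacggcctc
Arntl, chr7:113207530-113207559, + strand, ROR element: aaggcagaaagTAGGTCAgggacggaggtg

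The D-box, the element that DBP binds, was found in Per3, in 2 copies that begin 205 and 158 bases before its start site (1.11% of genes hold one). The ROR element, through which NR1D1 and NR1D2 repress, was found in Arntl, 30 bases after the second of its 2 annotated start sites (2.97% of genes). No match in the windows of Clock, Nr1d2 and Dbp says only that these letters are not there. A match of letters describes the DNA and was not tested as a binding site.

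Nuclei were taken as barcodes with 500 or more genes and 5% or less mitochondrial counts, 8199 aged and 9939 young after likely doublets were left out. Clock genes were kept out of the clustering, so that classes were formed without the genes described. Counts of unique molecular identifiers (UMIs, 1 per captured RNA molecule) were summed over each class and divided by the class total, giving CPM, the UMIs of a gene in every 1000000 UMIs of the class. Every interval is an exact 95% interval for counting error only. Of the neurons, 1 sub-cluster with 81 aged and 114 young nuclei carried 6 of the 7 listed suprachiasmatic markers in 10% or more of its nuclei and is called suprachiasmatic-like. Its markers included Vipr2, the receptor for the peptide VIP, at 196 and 234 CPM in the aged and the young library against 3.24 and 2.48 CPM in other neurons, Vip itself at 678 and 623 CPM against 6.61 and 7.56 CPM, and the developmental factor Lhx1 at 125 and 165 CPM against 3.70 and 3.59 CPM. The other classes were other neurons (4894 aged and 6304 young nuclei), oligodendrocytes (1881 and 2133), astrocytes (154 and 387), microglia (409 and 475) and oligodendrocyte precursors (183 and 254). Median UMIs per nucleus were 5872 and 5514 in suprachiasmatic-like neurons, 8395 and 7814 in other neurons and 1804 to 4291 in the glial classes. The 2 libraries held 57472005 and 69103229 UMIs in the barcodes kept before doublets were marked, and shared 25 barcodes. An unnamed cluster of 518 aged and 88 young nuclei with a median of 687 UMIs entered no class.

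Suprachiasmatic-like neurons held more clock RNA than other neurons in both libraries. The hour of dissection was not given, so for this and every other contrast of classes the levels at other hours are not known. A gene was called where its level was at least 25% higher, or 20% lower, with an interval excluding 1 in both libraries. By that rule 8 of the 10 genes were higher in suprachiasmatic-like neurons, namely Per1, Per2, Per3, Cry1, Clock, Arntl, Nr1d1 and Dbp, and none was lower. Among all 11032 genes with 10 or more UMIs expected in the suprachiasmatic-like neurons, summed over both libraries, 7.35% were called higher and 10.4% lower. That minimum was set after values were seen. With 50 or more expected UMIs, 5 members remained for the comparison and 3 were higher (Per3, Clock and Arntl) and none lower, against 10.0% and 16.4% of all 4898 genes.

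**Figure D1:**
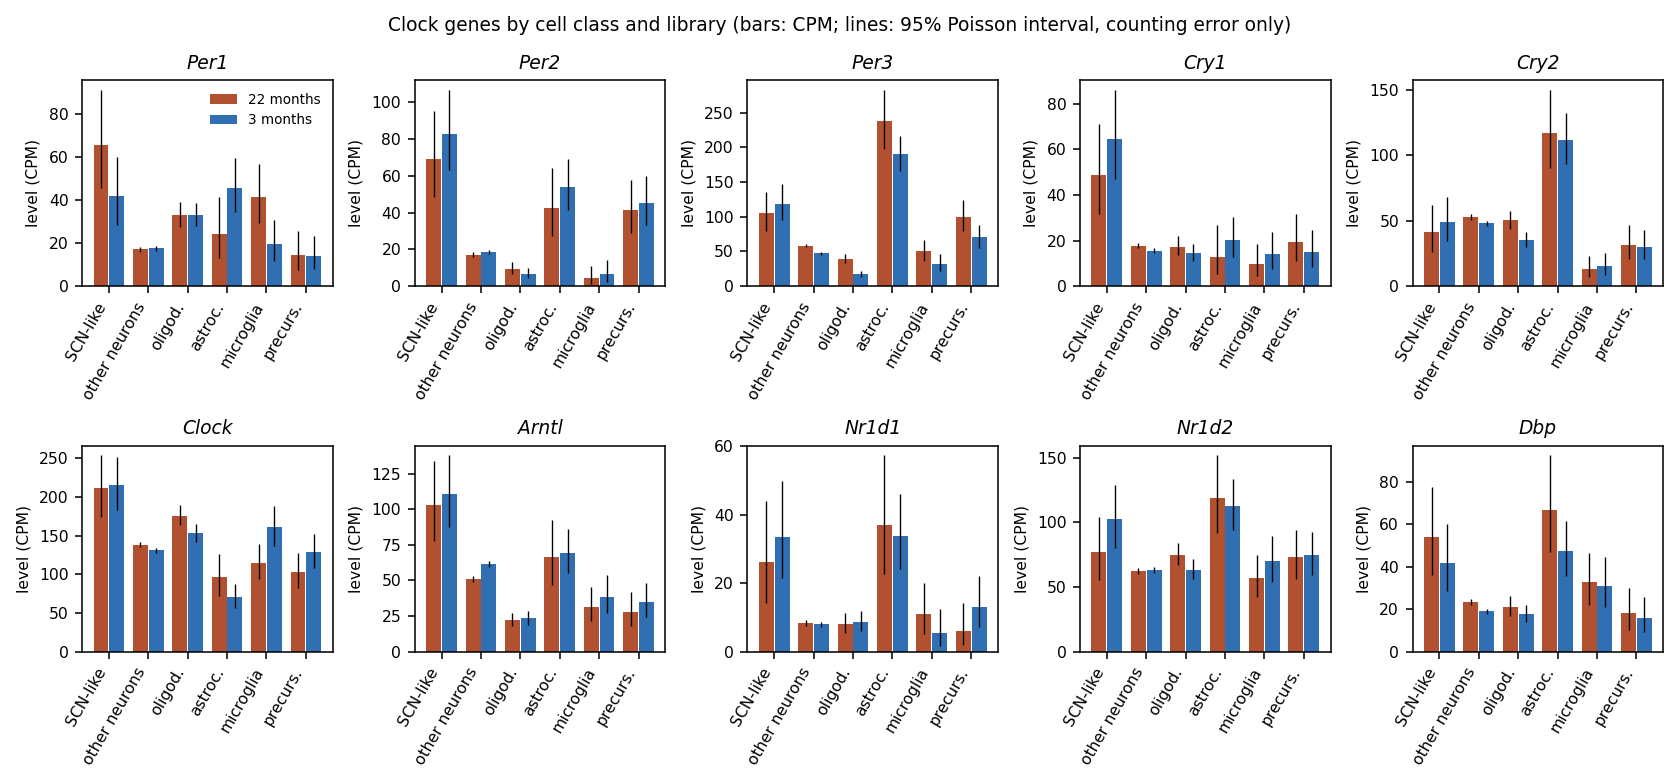
Level of each clock gene (vertical axis, CPM, from 0 in every panel) in 6 cell classes of the aged library (brown) and the young library (blue), with lines for the 95% Poisson interval. Per2, Cry1, Clock and Arntl are highest in suprachiasmatic-like (SCN-like) neurons and Per3, Cry2 and Nr1d2 in astrocytes, in both libraries.

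Of the inhibitors of the loop, all 3 Period genes were higher. Per2, which with its partners shuts off CLOCK and ARNTL, was at 69.2 CPM (48.7 to 95.3) in aged and 82.6 CPM (62.9 to 107) in young suprachiasmatic-like neurons, from 37 and 59 UMIs, and at 17.2 and 18.6 CPM in other neurons. The ratios were 4.03 (2.81 to 5.601) in the aged and 4.43 (3.35 to 5.76) in the young library, so both libraries placed Per2 about as far above the other neurons. Per1, the Period gene that also responds rapidly to light and neural activity, was at 65.4 CPM (45.6 to 91.0) in the aged and 42.0 CPM (28.3 to 59.96) in the young library, against 17.0 and 17.6 CPM in other neurons. Its ratios were 3.84 (2.65 to 5.39) and 2.38 (1.599 to 3.42), with overlapping intervals. Per3, which is dispensable for the rhythm of the mouse pacemaker, was at 105 CPM (79.1 to 136) and 119 CPM (95.05 to 147), or 1.80 (1.36 to 2.35) and 2.52 (2.003 to 3.12) times the level in other neurons.

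The cryptochromes, the strongest repressors of CLOCK and ARNTL, were split. Cry1 was at 48.6 CPM (31.7 to 71.2) in the aged and 64.4 CPM (47.2 to 85.9) in the young suprachiasmatic-like neurons, and at 17.7 and 15.6 CPM in other neurons, which gives ratios of 2.74 (1.78 to 4.05) and 4.13 (3.00 to 5.56). Cry2 was at 41.1 CPM (25.8 to 62.3) and 49.0 CPM (34.1 to 68.1), with ratios of 0.78 (0.49 to 1.19) and 1.02 (0.71 to 1.42) that include 1. Cry1 thus lay above the other neurons in both libraries, while the intervals for Cry2 reach down to 0.49 (aged) and up to 1.42 (young). Over all settings tried the Cry2 ratio ran from 0.42 to 0.84 in the aged and from 0.87 to 1.03 in the young library.

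Both activators were higher as well. Clock was at 211 CPM (174 to 254) in the aged and 216 CPM (183 to 252) in the young suprachiasmatic-like neurons against 138 and 131 CPM in other neurons, ratios of 1.53 (1.26 to 1.84) and 1.64 (1.39 to 1.93). Arntl was at 103 CPM (77.4 to 134) and 111 CPM (87.6 to 138) against 51.2 and 61.4 CPM, ratios of 2.01 (1.51 to 2.62) and 1.80 (1.42 to 2.25). Npas2, which can stand in for Clock as the partner of ARNTL, went the other way, at 0.29 (0.19 to 0.44) and 0.36 (0.26 to 0.50) times its level in other neurons.

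Of the second loop, Nr1d1 was at 26.2 CPM (14.3 to 43.9) in the aged and 33.6 CPM (21.5 to 49.99) in the young suprachiasmatic-like neurons and at 8.30 and 7.96 CPM in other neurons. Its ratios of 3.15 (1.71 to 5.36) and 4.22 (2.68 to 6.37) rest on 14 and 24 UMIs. The call ended where suprachiasmatic-like nuclei were taken as neurons with 3 or more of the 7 markers (41 aged and 55 young nuclei), with log2 ratios of 0.15 (aged) and 2.29 (young). Nr1d2 had ratios of 1.23 (0.88 to 1.67) and 1.62 (1.27 to 2.04), past the rule in the young library only, a difference between libraries that was not tested. Dbp, the output gene, was at 54.2 CPM (36.3 to 77.8) and 42.0 CPM (28.3 to 59.96) against 23.5 and 19.1 CPM, ratios of 2.31 (1.54 to 3.33) and 2.20 (1.48 to 3.16).

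Of a list of 20 other clock genes, 15 had enough expected UMIs and 5 were called between suprachiasmatic-like and other neurons in both libraries. Rorb, an activator at ROR elements that is known in the suprachiasmatic nucleus, stood at 18.995 (17.7 to 20.4) and 23.7 (22.4 to 25.1) times its level in other neurons. Rora, its relative, was at 1.55 (1.44 to 1.66) and 1.74 (1.65 to 1.84) times, and Hlf, which like Dbp binds D-boxes, at 2.64 (2.01 to 3.39) and 4.38 (3.62 to 5.25) times. Npas2 and the deubiquitinase Usp2 were lower.

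**Figure D2:**
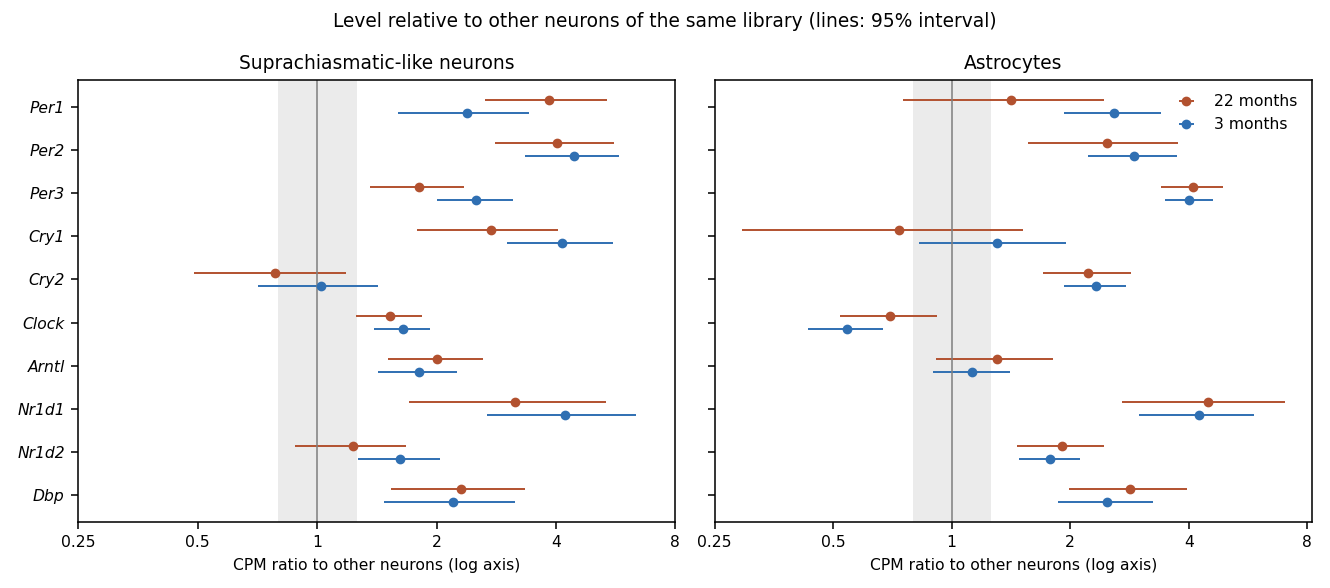
Level of each clock gene as a ratio to other neurons of the same library (horizontal log axis) in suprachiasmatic-like neurons (left) and astrocytes (right), brown for the aged and blue for the young library, with 95% intervals and a grey band from 20% lower to 25% higher. Per2 sits near 4 on the left in both libraries, Cry2 near 1 on the left and above 2 on the right, and Clock right of 1 on the left and left of 1 on the right.

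Counted by nuclei, a Per2 UMI was found in 29.6% (20.0% to 40.8%, Clopper-Pearson) of aged and 36.8% (28.0% to 46.4%) of young suprachiasmatic-like nuclei, against 13.2% and 13.5% of other neurons and 0.978% and 1.05% of microglia, the class with the lowest share. In microglia, with medians of 2131 and 1804 UMIs per nucleus, RNA as found in droplets without a nucleus would supply 43.1% and 26.3% of the Per2 UMIs, so that their share is not read as expression. With every nucleus thinned to 1000 UMIs the shares were 8.64% and 9.65% in suprachiasmatic-like neurons and 1.52% and 1.89% in other neurons, of which 10 and 11 nuclei were too shallow and left out.

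For most of the genes the same contrast held against single groups of neurons. Of 23 neuron sub-clusters with 20 or more nuclei in each library, the suprachiasmatic-like one ranked first in both libraries for Per1, Per2, Cry1, Clock, Arntl and Nr1d1. In the 22 others Per2 ranged from 7.31 to 25.5 CPM in the aged and from 1.27 to 33.9 CPM in the young library, below its level in suprachiasmatic-like neurons. Cry2 placed it 17th and 9th. A sub-cluster led by Gm12068 and Folh1 was at 110 and 86.0 CPM for Per3, above the suprachiasmatic-like one in the aged library only. For Nr1d2 it was at 104 and 113 CPM, above the suprachiasmatic-like one (76.6 and 102 CPM, ranked 3rd and 2nd) in both libraries. For Dbp it was at 47.2 CPM in the young library, above the 42.0 CPM of the suprachiasmatic-like one, which ranked first in the aged library. The Gm12068 sub-cluster also led the 22 others for Cry2 at 84.2 and 90.2 CPM. The cholinergic sub-cluster led by Slc5a7 and Chat had the lowest Dbp, 5.28 and 3.81 CPM from 3 UMIs in each library.

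Astrocytes carried a different profile of clock genes. Against other neurons, 6 members were higher in both libraries (Per2, Per3, Cry2, Nr1d1, Nr1d2 and Dbp) where 15% of 11999 genes were, and Clock was lower where 23.4% were. Per3 was at 238 CPM (198 to 282) in aged and 190 CPM (166 to 216) in young astrocytes, 4.09 (3.40 to 4.88) and 4.02 (3.49 to 4.61) times other neurons, and above its level in suprachiasmatic-like neurons. Cry2 was at 117 CPM (89.8 to 150) and 111 CPM (93.2 to 132), ratios of 2.22 (1.70 to 2.85) and 2.32 (1.93 to 2.76). Nr1d1 was at 37.1 CPM (22.7 to 57.3) and 33.8 CPM (24.1 to 46.0), which overlaps suprachiasmatic-like neurons, and Dbp at 66.8 CPM (46.8 to 92.5) and 47.3 CPM (35.7 to 61.4). Nr1d2 was at 119 CPM (91.5 to 152) and 112 CPM (94.0 to 133), 1.91 (1.46 to 2.44) and 1.78 (1.49 to 2.12) times other neurons. Clock was at 96.5 CPM (72.1 to 127) and 70.9 CPM (56.6 to 87.8), ratios of 0.70 (0.52 to 0.92) and 0.54 (0.43 to 0.67), while Arntl at 1.30 (0.91 to 1.81) and 1.13 (0.90 to 1.40) was not called. Astrocytes therefore had more RNA of most inhibitors and outputs, and less of Clock, than other neurons.

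In the other glia the numbers of members lower than in other neurons lay near the shares of all genes that were. In oligodendrocytes 3 of 10, Per2, Per3 and Arntl, were below other neurons in both libraries, where 36.5% of 15973 genes were, and Per1 was above, where 24.7% were. Arntl stood at 22.0 CPM (17.7 to 27.1) and 23.3 CPM (18.96 to 28.2), ratios of 0.43 (0.34 to 0.53) and 0.38 (0.31 to 0.46), and Per1 at 32.8 CPM in each library, ratios of 1.92 (1.59 to 2.31) and 1.86 (1.55 to 2.22). In microglia 3 of 10, Per2, Cry2 and Arntl, were lower (28.2% of 12262 genes were) and no member was higher (28.6%), with Per2 at 4.36 CPM (1.19 to 11.2) and 6.45 CPM (2.37 to 14.0) from 4 and 6 UMIs. Oligodendrocyte precursors had Per2 and Per3 higher (13.4% of 12209 genes were) and Cry2 and Arntl lower (21.3%). Per2 was at 41.4 CPM (28.7 to 57.9) and 45.2 CPM (33.3 to 59.9) in precursors and at 9.54 CPM (6.79 to 13.04) and 6.84 CPM (4.61 to 9.76) in oligodendrocytes, so the precursors lay above the mature cells in both libraries without overlap of the intervals.

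Across the classes the order of levels differed from gene to gene. For Clock the order in the aged library was suprachiasmatic-like neurons, oligodendrocytes (176 CPM, 164 to 189), other neurons, microglia (115 CPM, 93.7 to 139), precursors (104 CPM, 82.7 to 128) and astrocytes, and the last 3 do not differ beyond their intervals there. The young library had another order, with microglia second (161 CPM, 136 to 189). Astrocytes (70.9 CPM, 56.6 to 87.8) lay below microglia there without overlap of the intervals. For Arntl suprachiasmatic-like neurons were followed by astrocytes (66.8 CPM, 46.8 to 92.5 in the aged and 69.2 CPM, 55.1 to 85.9 in the young library) and other neurons, with the other glia at 22.0 to 38.7 CPM. Cry1 was at 9.82 to 20.3 CPM in every class but suprachiasmatic-like neurons, with overlapping intervals among the glia. Among the members, the levels in aged other neurons ran from 138 CPM for Clock and 62.3 CPM for Nr1d2 to 17.0 CPM for Per1 and 8.30 CPM for Nr1d1.

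Between the ages, no member was 25% higher or 20% lower in other neurons, the class with most nuclei. Among all 17968 genes with 50 or more UMIs there, 8.04% were called higher and 10.7% lower in the aged library. Smaller differences had intervals that excluded 1 for 5 members higher in the aged library (Per3, Dbp, Cry1, Cry2 and Clock) and for Arntl, which was lower. Without a fold minimum, a rule added after the values were seen, 26.5% of all genes were higher and 23.2% lower.

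Per3 was at 58.1 CPM (55.9 to 60.3) in aged and 47.3 CPM (45.5 to 49.1) in young other neurons, a ratio of 1.23 (1.16 to 1.30). Dbp was at 23.5 CPM (22.1 to 24.95) and 19.1 CPM (17.9 to 20.3), a ratio of 1.23 (1.13 to 1.34). Both lay just under the 25% minimum. RNA as found in droplets without a nucleus would supply 18.5% and 16.4% of these Dbp UMIs. With it subtracted, Dbp was at 19.9 CPM in aged and 16.4 CPM in young other neurons. Arntl was at 51.2 CPM (49.2 to 53.3) and 61.4 CPM (59.3 to 63.5), a ratio of 0.83 (0.79 to 0.88) and the lowest of the members. The remaining ratios were 1.14 (1.03 to 1.253) for Cry1, 1.10 (1.04 to 1.16) for Cry2, 1.06 (1.02 to 1.09) for Clock, 1.04 (0.91 to 1.20) for Nr1d1, 0.99 (0.94 to 1.04) for Nr1d2, 0.97 (0.88 to 1.06) for Per1 and 0.92 (0.84 to 1.01) for Per2. Camta1, whose annotated span holds all of Per3 on the same strand so that reads of the shared stretch could belong to either gene, had a ratio of 0.91 (0.89 to 0.92). Cry2, Arntl, Nr1d1 and Dbp overlap counted genes of the opposite strand, which matters only if strand was not used in counting, a setting not stated.

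Per3 and Arntl kept these directions in most neuron groups. Of the 22 other sub-clusters, Per3 was above in the aged library in 19, Arntl was below in 19, and Dbp was above in 17. All sub-clusters come from the same 2 libraries and are not replicates. Per1 was above in 10 and below in 12, and Per2 likewise.

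The counts allowed calls in single sub-clusters, of which 3 are given, picked after their values were seen. Over all 22, Per3 was called higher in 4, Arntl lower in 4 and Dbp higher in 3, with none called the other way. Clock was higher in 4 and lower in 1, Per2 higher in 1 and lower in 2, Per1 higher in 1 and lower in 1, and Nr1d2 lower in 1. Outside the 3 picked, no sub-cluster had more than 1 member called in either direction, and several had none. The 3 picked were led by Ebf1, by Drd2 with Adora2a, and by Drd1 with Pdyn, of which Drd1 and Drd2 encode dopamine receptors. In the Ebf1 sub-cluster (242 aged and 313 young nuclei) Per3 was at 60.3 and 35.6 CPM, a ratio of 1.69 (1.30 to 2.21), Dbp at 50.2 and 31.1 CPM, 1.62 (1.21 to 2.16), and Clock at 150 and 111 CPM, 1.34 (1.15 to 1.57). There Arntl was at 52.4 and 90.8 CPM, 0.58 (0.46 to 0.72), and Per2 at 20.5 and 33.9 CPM, 0.61 (0.42 to 0.87). That made 3 of 10 members higher against 9.36% of all genes and 2 lower against 8.69%, a description only, since the sub-cluster was picked by its values. In the Drd2 sub-cluster Per3 was higher at 1.49 (1.27 to 1.74) and Arntl lower at 0.67 (0.58 to 0.78), from 61.2 and 91.2 CPM, as was Per1 at 0.77 (0.60 to 0.99), with 10.5% of all genes higher and 7.80% lower. In the Drd1 sub-cluster Per3 was at 1.47 (1.26 to 1.71) and Dbp at 1.30 (1.05 to 1.602) and no member was lower, with 9.65% of all genes higher and 7.98% lower.

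**Figure D3:**
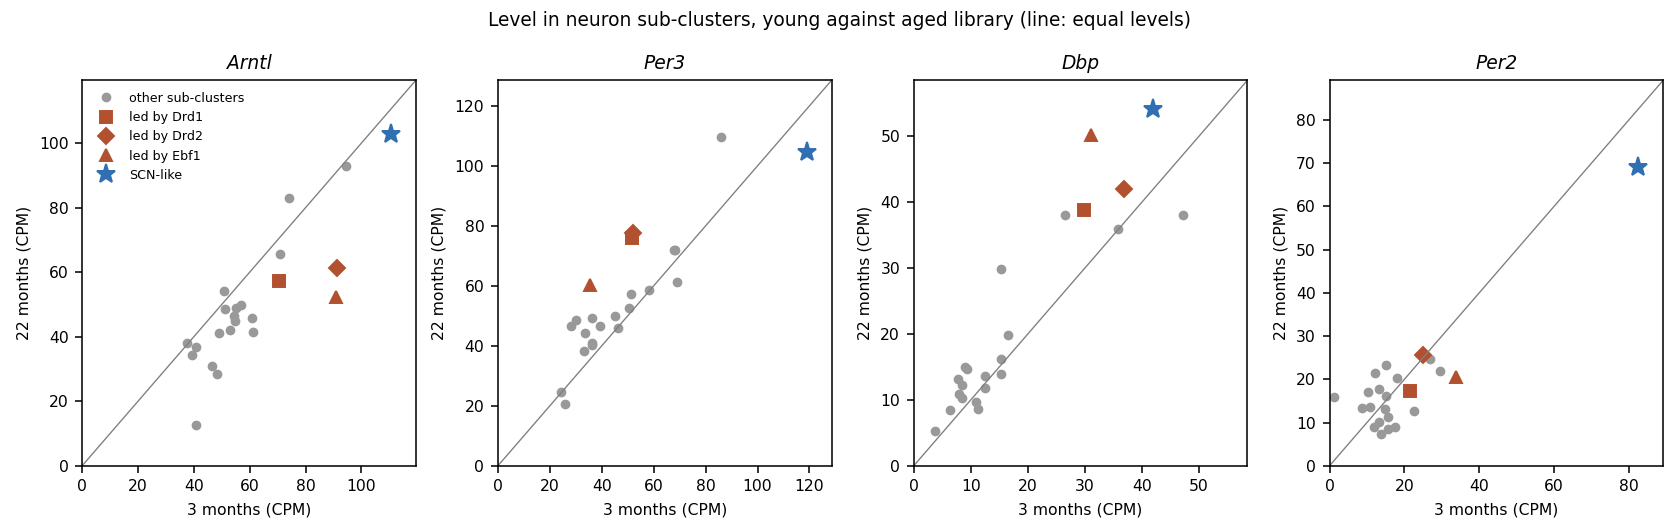
Level of Arntl, Per3, Dbp and Per2 in 23 neuron sub-clusters in the young library (horizontal axis, CPM) against the aged library (vertical axis, CPM), with a line for equal levels. Most points lie below the line for Arntl and above it for Per3, the Ebf1 sub-cluster (triangle) lies farthest from it among the 3 marked in brown for Arntl, and the suprachiasmatic-like neurons (star) are at the top right.

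In suprachiasmatic-like neurons no member was called between the ages. Of the 9 with 50 or more UMIs, none passed the rule, against 6.80% of 5002 genes higher and 6.12% lower. The ratios, aged over young, were 1.56 (0.93 to 2.63) for Per1, 0.84 (0.54 to 1.28) for Per2, 0.88 (0.62 to 1.247) for Per3, 0.75 (0.45 to 1.247) for Cry1 and 0.84 (0.47 to 1.47) for Cry2. They were 0.98 (0.76 to 1.26) for Clock, 0.93 (0.65 to 1.33) for Arntl, 0.75 (0.50 to 1.11) for Nr1d2 and 1.29 (0.75 to 2.23) for Dbp. Nr1d1, with 38 UMIs in all, had a ratio of 0.78 (0.37 to 1.57). At this depth differences of 25% could not be told from none in any member, and the interval for Clock, the best counted, runs from 0.76 to 1.26. Of the 20 other clock genes 9 were counted well enough, and among those reported here Hlf at 0.68 (0.49 to 0.93) and Fbxl21 at 0.57 (0.32 to 0.98) were lower.

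**Figure D4:**
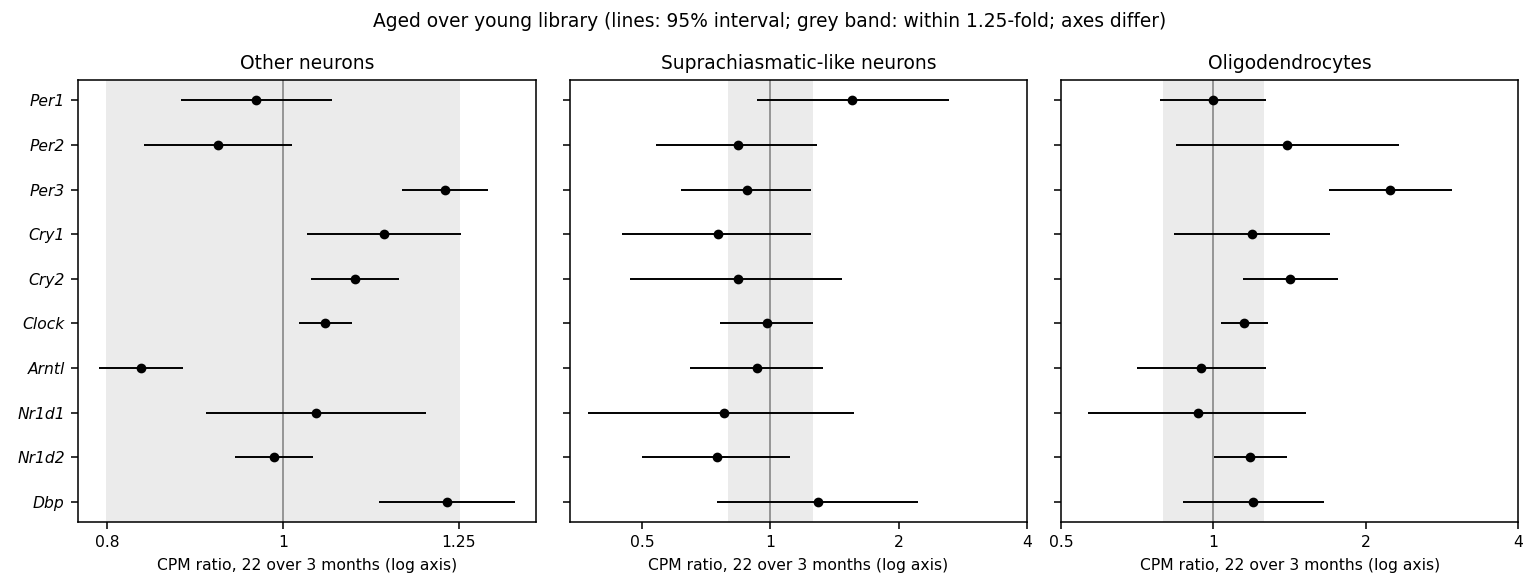
Ratio of the aged over the young library for each clock gene (horizontal log axis, scale differing by panel) in other neurons, suprachiasmatic-like neurons and oligodendrocytes, with 95% intervals and a grey band from 20% lower to 25% higher. Points in other neurons lie between 0.83 and 1.23, those in suprachiasmatic-like neurons all have intervals that include 1, and Per3 in oligodendrocytes is at 2.23.

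Among the members called in glia, the largest ratio between ages was that of Per3 in oligodendrocytes. Per3 was at 39.1 CPM (33.3 to 45.7, 160 UMIs) in the aged and 17.6 CPM (13.8 to 21.9, 77 UMIs) in the young library, a ratio of 2.23 (1.69 to 2.97). Cry2 was at 50.2 CPM (43.5 to 57.5) and 35.3 CPM (29.99 to 41.4), a ratio of 1.42 (1.15 to 1.76). These 2 of 10 members were higher and none lower, where 14.1% of 10931 genes were higher and 4.74% lower. Without a fold minimum 4 were higher, Clock and Nr1d2 besides, and none lower, where 19.4% and 7.37% of genes were. The class joins a pair of clusters whose shares differed between the libraries, 1 led by genes that include Opalin, with 78.0% of aged and 63.2% of young oligodendrocytes, and 1 led by Enpp6 and Anln, with 22.0% and 36.8%. The direction of this difference depended on the clustering. With clock genes allowed in clustering, the Opalin cluster held 1244 aged and 1609 young nuclei and the Enpp6 cluster 637 and 524, so the shares went the other way. In each cluster of the clustering without clock genes Per3 was called higher, at 32.0 against 11.5 CPM in the Opalin cluster, a ratio of 2.77 (1.83 to 4.33), and at 59.6 against 26.3 CPM in the Enpp6 cluster, a ratio of 2.26 (1.53 to 3.38). Cry2 was called in the Opalin cluster, at 1.65 (1.26 to 2.19), and not in the Enpp6 cluster, at 1.09 (0.74 to 1.59), a difference that was not tested. Nr1d2 was also called higher in the Opalin cluster only, at a ratio of 1.27 against 0.95 in the Enpp6 cluster. Clock was called higher in the Enpp6 cluster only, at a ratio of 1.32 against 1.06 in the Opalin cluster. These differences between the clusters were not tested either. Of the members with 50 or more UMIs, 3 of 8 were higher in the Opalin cluster and 2 of 6 in the Enpp6 cluster, and none was lower in either. Of all genes 13.2% were higher and 4.57% lower in the Opalin cluster, and 9.38% higher and 4.36% lower in the Enpp6 cluster. In the whole class the 8 ratios other than those of Per3 and Cry2 ran from 0.93 for Nr1d1 to 1.40 (0.84 to 2.33) for Per2. Of the other clock genes 4 of 13 were higher, namely Hlf at 2.38 (1.498 to 3.86), Bhlhe41 at 1.70 (1.36 to 2.13), Csnk1e at 1.35 (1.06 to 1.73) and Tef at 1.31 (1.15 to 1.49). Camta1 was at 1.01 (0.91 to 1.13) in these cells. The summed level of the 5 neuron markers in oligodendrocytes was 1070 CPM in the aged and 802 CPM in the young library, against 19754 and 21857 CPM in other neurons, none of the 5 was at 0, and its part in these values was not tested beyond the subtraction of droplet RNA, after which Per3 was still called.

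In the smaller glial classes the calls rested on few UMIs. Per1 in astrocytes was at 24.1 CPM (12.9 to 41.3, 13 UMIs) in the aged and 45.6 CPM (34.2 to 59.5, 54 UMIs) in the young library, a ratio of 0.53 (0.26 to 0.98), the only one of 9 members called there (7.08% of 5961 genes were higher and 4.98% lower). The neuron markers in astrocytes summed to 1371 and 622 CPM, none at 0, and their part was not tested. In microglia Per1 was at 41.4 CPM (29.3 to 56.9, 38 UMIs) and 19.3 CPM (11.5 to 30.6, 18 UMIs), a ratio of 2.14 (1.19 to 3.99), and Clock was at 115 and 161 CPM, 0.71 (0.55 to 0.92), with 6 members counted well enough (9.21% of 6874 genes higher, 6.39% lower). Per3 in precursors was at 99.8 CPM (79.4 to 124) and 70.6 CPM (55.5 to 88.4), a ratio of 1.42 (1.02 to 1.962), 1 of 6 members, with none lower (7.95% of 6527 genes were higher and 7.12% lower). Per1 in microglia was not called with droplet RNA subtracted, which left under 50 UMIs at a log2 ratio of 1.30. With doublets kept, Per1 in astrocytes and Clock in microglia were no longer called. The neuron markers in microglia summed to 1043 and 1172 CPM and in precursors to 1450 and 1612 CPM, none at 0. In precursors the 6 oligodendrocyte markers summed to 481 CPM in the aged and 1277 CPM in the young library and the 5 markers of committed precursors to 1350 and 2712 CPM, none at 0 in either, and their part in the Per3 value was not tested.

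Genes that respond to neural activity and to stress hormones were set beside the members, since Per1 is known to respond to both. Of 15 immediate early genes, 12 were lower and none higher in aged other neurons, among them Nr4a3 at 0.54 (0.45 to 0.65), Arc at 0.56 (0.45 to 0.70), Fosl2 at 0.58 (0.47 to 0.71) and Btg2 at 0.63 (0.55 to 0.72), with a median log2 ratio of -0.48 against 0.02 over all genes. Per1, which shares such inputs, was at 0.97 in the same nuclei. Of 9 glucocorticoid response genes, the metallothioneins Mt1 at 1.503 (1.42 to 1.59) and Mt2 at 1.56 (1.32 to 1.86) were higher and none was lower. Over that list 4 ratios lay above 1 and 5 below, with a median log2 ratio of -0.02 against 0.02 over all genes. Of 6 rhythmic output genes of the suprachiasmatic nucleus, the vasopressin gene Avp at 1.95 (1.87 to 2.04) and Rgs16 at 1.30 (1.05 to 1.61) were higher in aged other neurons. Over that list 3 ratios lay above 1 and 3 below, in a class that leaves out the suprachiasmatic-like nuclei. In suprachiasmatic-like neurons themselves Rgs16 was called higher at 1.31 (1.003 to 1.72), while Avp, at 1590 and 1504 CPM, was not called at 1.06 (0.97 to 1.16). Avp, a neuronal gene, was called higher in the aged library in all 4 glial classes too. It was also among the leading genes of the unnamed cluster of 518 aged and 88 young nuclei. Where the Avp RNA outside suprachiasmatic-like neurons came from was not tested.

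Droplets without a nucleus held the short clock genes in excess, and this bears on low levels in shallow nuclei. They were taken as barcodes with more than 100 and fewer than 500 UMIs, 56473 of the aged library and 68552 of the young one. Their mean was 336 UMIs in the aged and 239 UMIs in the young library. Dbp, with an annotated span of 5.12 kb (chr7:45705088-45710203, GRCm38 as for all spans here), was at 121 and 114 CPM in such droplets, 5.14 and 5.97 times its level in other neurons. Nr1d1, which spans 7.40 kb (chr11:98767932-98775333), was at 4.49 and 5.02 times, and Per1, with 14.7 kb (chr11:69095217-69109960), at 2.10 and 1.89 times. The longest genes, Arntl and Clock, were the reverse. Clock, with 94.9 kb (chr5:76209868-76304792), was at 0.45 and 0.41 times its level in neurons and Arntl, with 106.7 kb (chr7:113207465-113314126), at 0.30 and 0.26 times. Per3 (chr4:151003652-151044665) was at 0.37 and 0.33 times. The other 4, with spans of 30.4 kb for Cry2 (chr2:92403646-92434043) to 53.4 kb for Cry1 (chr10:85131700-85185064), Per2 (chr1:91415982-91459324) and Nr1d2 (chr14:18204054-18239127) between them, lay between 0.73 and 1.42 times. Cry1, the longest of these, was at 1.42 and 1.21 times, above the shorter Per3, so length did not order all the members.

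**Figure D5:**
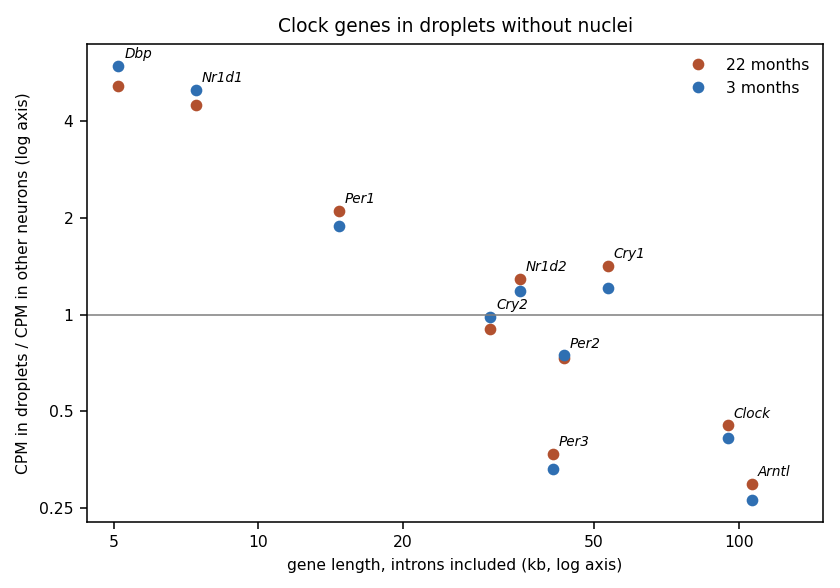
Level in droplets without a nucleus divided by that in other neurons (vertical log axis) against the length of each clock gene with its introns (horizontal log axis, kb), brown for the aged and blue for the young library. Dbp and Nr1d1, the shortest, are at 4.49 to 5.97 and Arntl and Clock, the longest, at 0.26 to 0.45.

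If each nucleus had taken up the RNA of 1 average droplet, that RNA would make up 88.7% and 75.3% of the Dbp UMIs in oligodendrocytes and 71.4% and 53.6% of those of Nr1d1, so that the levels of these genes in oligodendrocytes are not read as expression. In microglia the sum came to 51.2% and 90.6% for Nr1d1, 55.3% and 44.5% for Dbp, 54.6% and 38.3% for Cry2 and 43.1% and 26.3% for Per2, and in precursors to 49.5% and 40.6% for Dbp and 45.8% and 17.3% for Nr1d1, so these levels are upper bounds of what the nuclei held under that assumption. In suprachiasmatic-like neurons the same sum came to 11.3% and 10.3% for Dbp, 7.24% and 4.53% for Nr1d1 and 0.923% and 0.643% for Per2. For Per3 in oligodendrocytes it was 8.43% and 10.4%.

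Over 54 profiles, made of the 23 neuron sub-clusters and the 4 glial classes in each of the 2 libraries, the genes most like Dbp among 8145 were Tef (Pearson's r of 0.80 on log2(CPM + 5)), Hist1h1c (0.78) and Nr1d2 (0.78). Those most like Per1 were Csnk1a1 (0.68), Otud5 (0.68) and Dbp (0.67), and those most like Arntl were Fam227a (0.74), Ppil6 (0.71) and Arl3 (0.70). The profiles share libraries, differ in depth and had no droplet RNA subtracted, so these values are a description.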

How the data were processed

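Nuclear RNA was counted as UMIs per gene and barcode, and the authors deposited these counts unfiltered, made with Cell Ranger 4 per the file headers; the genome build was not given in the sources used here. Barcodes with 500 or more genes and 5% or less mitochondrial UMIs were kept, and doublets (Scrublet in scanpy 1.11.5, 4.63% of aged and 4.77% of young barcodes) were left out. The 10 members and 20 other clock genes stayed out of Leiden clustering (resolution 1, 2000 variable genes, 30 components, 15 neighbours). Classes were named from marker lists, requiring 3 detected markers. CPM are summed UMIs over the class total. Ratios carry exact conditional binomial 95% intervals, and a call needs a level at least 25% higher or 20% lower and, between ages, 50 UMIs over both libraries; the minimum of 10 expected UMIs between classes, summed over both libraries, was set after values were seen. Members, lists and rules were chosen with earlier results of these data known. All members are named; of other lists the genes with interval bounds farthest from 1. One gene among the other clock genes is not reported here. Gene spans are from GENCODE M21 (GRCm38). Sequences are from RefSeq. The ratio rule was tested on simulated Poisson counts. They held no spread between nuclei, mice or libraries, so that test covers counting error only. No p-value was computed, since each age is 1 library.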

Additional observations from a re-analysis of the deposited data

Results flagged for a closer look

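Per1 was called in opposite directions between the ages in 2 glial classes, lower in the aged library in astrocytes at a ratio of 0.53 (0.26 to 0.98, from 13 and 54 UMIs) and higher in microglia at a ratio of 2.14 (1.19 to 3.99, from 38 and 18 UMIs). With droplet RNA subtracted Per1 in microglia was no longer called, since under 50 UMIs were left, and with doublets kept Per1 in astrocytes was not. The difference between these classes was not tested, and each age is 1 library.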

How the results depend on the processing

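No paired analysis was possible because each age is 1 library, and no library could be left out for the same reason. The 14 other settings tried and 4 more chosen after seeing the data reversed no called value. In astrocytes the number of members called between ages was 2 with droplet RNA subtracted, 2 at Leiden resolution 2 and 0 with 200 or more UMIs, against 1. In other neurons the number higher in the aged library was 1 with doublets kept (Dbp), 2 at 1% or less mitochondrial UMIs (Per3 and Dbp) and 5 with the interval alone, with 1 lower, against 0. In oligodendrocytes it was 1 at a fold of 1.5 and 4 with the interval alone, against 2. Between suprachiasmatic-like and other neurons 3 were called at 50 or more expected UMIs and 7 with droplet RNA subtracted, at 1% or less mitochondrial UMIs, or with cells chosen by 3 or more of 7 markers, against 8, Nr1d1 being the gene no longer called. Its log2 ratios, 1.66 (aged) and 2.08 (young) as reported, were 1.82 and 2.24, 1.34 and 2.11, and 0.15 and 2.29 under these 3 settings, so that after subtraction the call was lost, with under 10 expected UMIs left, although the ratio did not fall. With droplet RNA subtracted Per1 in microglia was not called, at a log2 ratio of 1.30, since under 50 UMIs were left.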
